A study of Homo sapiens with 3 samples.

Results

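The BH3-only genes are the members of the BCL2 family that start apoptosis at the mitochondrion. 10 human genes were taken (BCL2L11, BBC3, PMAIP1, BID, BAD, BIK, BMF, HRK, BNIP3 and BNIP3L), and their members on the array were all probe sets that the probe-to-gene table assigns to 1 of these genes alone. 9 of the 10 genes had such a probe set, 26 probe sets in all, out of 54675 probe sets and 19775 genes with a probe set of their own. BBC3, which encodes PUMA, shares its 1 probe set with other genes and therefore has no value here. All 26 probe sets passed the filter on low values, which kept 46034 probe sets.

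The arrays came from SupB15-MR (n = 2), a multiple drug resistant derivative, and from SupB15 (n = 1), the drug sensitive line of B-cell precursor acute lymphoblastic leukemia. The study derived SupB15-MR from SupB15 cells that had survived mitoxantrone in medium conditioned by HS-5 bone marrow stromal cells and had then been kept without drug. Both SupB15-MR and SupB15 cells grew in RPMI1640 with serum, and the sample titles name neither drug nor conditioned medium. The study describes the SupB15 cells of its expression comparison as cultured normally. The SupB15-MR arrays are labelled as biological replicates, and the label of array 2 names the cells SupB15-MR5, while that of array 1 names no clone. Whether these subclones came from 1 selection is not given in the sources used here. SupB15 was measured once, and the spread between its cultures is unknown. In bulk RNA, fewer cells with a transcript and less transcript per cell cannot be told apart.

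BH3-only proteins carry 1 of the BCL2 homology domains, a short helix that fits the groove of BCL2, BCL-XL or MCL1. BIM (BCL2L11), PUMA and the caspase-cut form of BID can also engage BAX and BAK directly, whereas NOXA (PMAIP1), BAD, BIK, BMF and HRK act mainly by occupying the anti-apoptotic proteins. BNIP3 and BNIP3L are atypical members that sit in the outer mitochondrial membrane and recruit the autophagy machinery to mitochondria. In lymphoid cells BIM sets the threshold for death after cytokine loss and glucocorticoids, and FOXO factors, p53, HIF1 and the integrated stress response are known inducers of genes of this class.

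Promoter sequence was available from RefSeq (GRCh38.p14) for 8 of the 10 genes, and BIK and BNIP3L had none. The 14 promoters each ran from 250 bases before to 50 bases after a start site. 2 short motifs were searched on both strands, GTAAACA for FOXO factors and ACGTG, the core of the hypoxia response element, with any overlapping matches counted. GTAAACA was found in 1202 of 35116 promoters (3.4%) and ACGTG in 7518 (21.4%). The promoters shown were chosen with the expression values known. Those of BCL2L11 and BNIP3 hold a match, given in capitals, have a single start site in the table and belong to genes with a called probe set. Those of PMAIP1 and BMF hold neither motif here. The probe sets of these 2 genes all had lower values in SupB15-MR, with a call for BMF alone. Whether a motif goes with a change in value was not tested.
BCL2L11 (chr2:111120664-111120963, plus strand): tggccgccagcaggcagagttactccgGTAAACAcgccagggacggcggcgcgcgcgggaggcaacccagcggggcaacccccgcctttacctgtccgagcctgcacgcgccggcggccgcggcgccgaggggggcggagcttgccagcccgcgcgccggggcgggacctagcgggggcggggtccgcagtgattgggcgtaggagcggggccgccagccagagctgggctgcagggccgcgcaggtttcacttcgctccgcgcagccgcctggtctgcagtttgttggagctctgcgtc
BNIP3 (chr10:131981874-131982173, minus strand): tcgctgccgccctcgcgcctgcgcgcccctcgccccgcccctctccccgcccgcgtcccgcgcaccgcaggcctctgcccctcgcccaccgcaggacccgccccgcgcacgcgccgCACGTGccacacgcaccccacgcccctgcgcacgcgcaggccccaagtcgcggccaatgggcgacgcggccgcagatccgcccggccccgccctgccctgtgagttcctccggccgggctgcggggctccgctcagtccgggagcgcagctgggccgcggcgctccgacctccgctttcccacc
PMAIP1 (chr18:59899746-59900045, plus strand): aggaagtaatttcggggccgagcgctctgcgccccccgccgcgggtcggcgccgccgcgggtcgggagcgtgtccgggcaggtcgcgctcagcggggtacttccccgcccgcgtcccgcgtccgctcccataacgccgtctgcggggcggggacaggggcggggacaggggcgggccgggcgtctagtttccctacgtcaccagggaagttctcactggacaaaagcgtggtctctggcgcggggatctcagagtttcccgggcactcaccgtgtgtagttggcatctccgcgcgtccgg
BMF (chr15:40108830-40109129, minus strand, the upstream of its start sites): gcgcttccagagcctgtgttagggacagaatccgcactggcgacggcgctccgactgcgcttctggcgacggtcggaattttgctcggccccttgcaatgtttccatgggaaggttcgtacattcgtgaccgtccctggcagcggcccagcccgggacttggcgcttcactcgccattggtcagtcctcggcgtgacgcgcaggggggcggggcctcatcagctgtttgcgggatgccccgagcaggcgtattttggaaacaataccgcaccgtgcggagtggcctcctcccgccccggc
The GTAAACA of BCL2L11 begins 223 bases before the start site, and the palindrome CACGTG of BNIP3, which holds ACGTG on each strand, begins 134 bases before it. ACGTG was also found in BBC3, 232 bases before the start, and in 2 of the 5 promoters of BID. These 2 promoters of BID overlap and hold the same CACGTG. The promoters of BAD, HRK and BMF held neither motif. A match describes the letters of this window and not binding in these cells.

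The arrays of SupB15-MR resembled each other far more than either resembled SupB15 (Pearson's r over the probe sets kept 0.994, against 0.776 for each SupB15-MR array with SupB15). In 23368 of 54675 probe sets (42.7%) the 2 SupB15-MR values were identical, and among the probe sets kept this was so for 18289 (39.7%). Among the members it was so for 8 of 26 (30.8%). RNA controls also moved with the groups. The 3' minus 5' log2 difference of ACTB was 2.59 and 2.43 in SupB15-MR, against 0.80 in SupB15, and the median log2 value of 3 probe sets for 18S RNA was 13.97 and 13.92 in SupB15-MR, against 6.49 in SupB15. GAPDH, with a 3' minus 5' difference of -0.09 and -0.11 in SupB15-MR and 0.10 in SupB15, did not show such a gap. The part of these controls in the differences given here was not tested.

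B-precursor identity was checked on 9 markers with a probe set of their own. 8 of them lay above the 20th percentile of all values (3.47) in both SupB15-MR arrays and 9 in SupB15, among them CD79A at 10.27 in both SupB15-MR arrays and 10.34 in SupB15. VPREB1 and CD34 fell, at 4.22 and 3.94 and at 3.82 and 3.46 in SupB15-MR, against 10.49 and 10.02 in SupB15. EBF1 was lower by at least 2-fold without a call, with 11.07 and 10.57 in SupB15-MR against 12.32 in SupB15. MME rose, with 10.58 and 10.71 in SupB15-MR against 9.11 in SupB15. The log2 of the summed values of these markers was 14.13 and 14.09 in SupB15-MR and 14.39 in SupB15. For other cell types it was 6.66 and 6.62 in SupB15-MR and 8.31 in SupB15 for 5 T cell markers, 8.51 and 7.78 in SupB15-MR and 7.55 in SupB15 for 4 myeloid markers, and 8.09 and 7.97 in SupB15-MR and 9.0 in SupB15 for 6 stromal markers. These sums weigh the genes with high values most. LCK was 5.12 in both SupB15-MR arrays and 7.79 in SupB15, and THY1 was 5.15 and 4.69 in SupB15-MR and 8.14 in SupB15. MPO was 8.2 and 7.3 in SupB15-MR and 6.18 in SupB15, whereas CSF1R went the other way, with 4.38 and 3.97 in SupB15-MR and 6.47 in SupB15. CD3E and CD2 lay below the 20th percentile in both SupB15-MR arrays, and LYZ did so in SupB15. The part of these markers in the differences given here was not tested.

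Fewer BH3-only probe sets were higher than lower in SupB15-MR. Of the 26, 2 rose (7.69%) and 5 fell (19.2%) at an adjusted p of at most 0.05 from limma and at least 2-fold, and 19.2% for falls stands against 9.71% of all probe sets kept, while 7.69% for rises stands against 13.1%. In either direction 7 were called (26.9%), against 22.8% of all. The rises were both on BCL2L11, and the falls were on BCL2L11, BID (2 probe sets), BMF and BNIP3. Without a test, both SupB15-MR arrays lay at least 2-fold below SupB15 on 10 probe sets (38.5%) and at least 2-fold above it on 4 (15.4%), against 15.0% and 18.3% of all probe sets kept (33.2% in either direction). 7 of these 14 did not pass the test, against 4931 of the 15300 past 2-fold among all probe sets kept. The median log2 difference, SupB15-MR minus SupB15, was -0.63 over the members and 0.0 over all probe sets kept, and the median size of the difference was 1.19 against 0.65. The array medians were 5.27 and 5.28 in SupB15-MR and 5.08 in SupB15, and relative to this shift of 0.19 the members ran from -3.05 (BIK) to 3.30 (BCL2L11). After median centring, 5 further probe sets passed the test, 4 of them lower (BCL2L11 1558143_a_at, BAD 209364_at, BIK 205780_at and HRK 229552_at) and 1 higher (HRK 206863_x_at). Of all probe sets kept, 31.1% were then called, against 22.8% before. Centring removed the shift but also changed the variance prior (standard deviation 0.0155, against 0.00102 before). Which of these led to the further calls was not tested. The SupB15 value lay outside the range of both SupB15-MR values in 26 of 26 probe sets, as it did in 83.7% of all, so that the absence of overlap is close to the rule for these arrays.

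**Figure D1:**
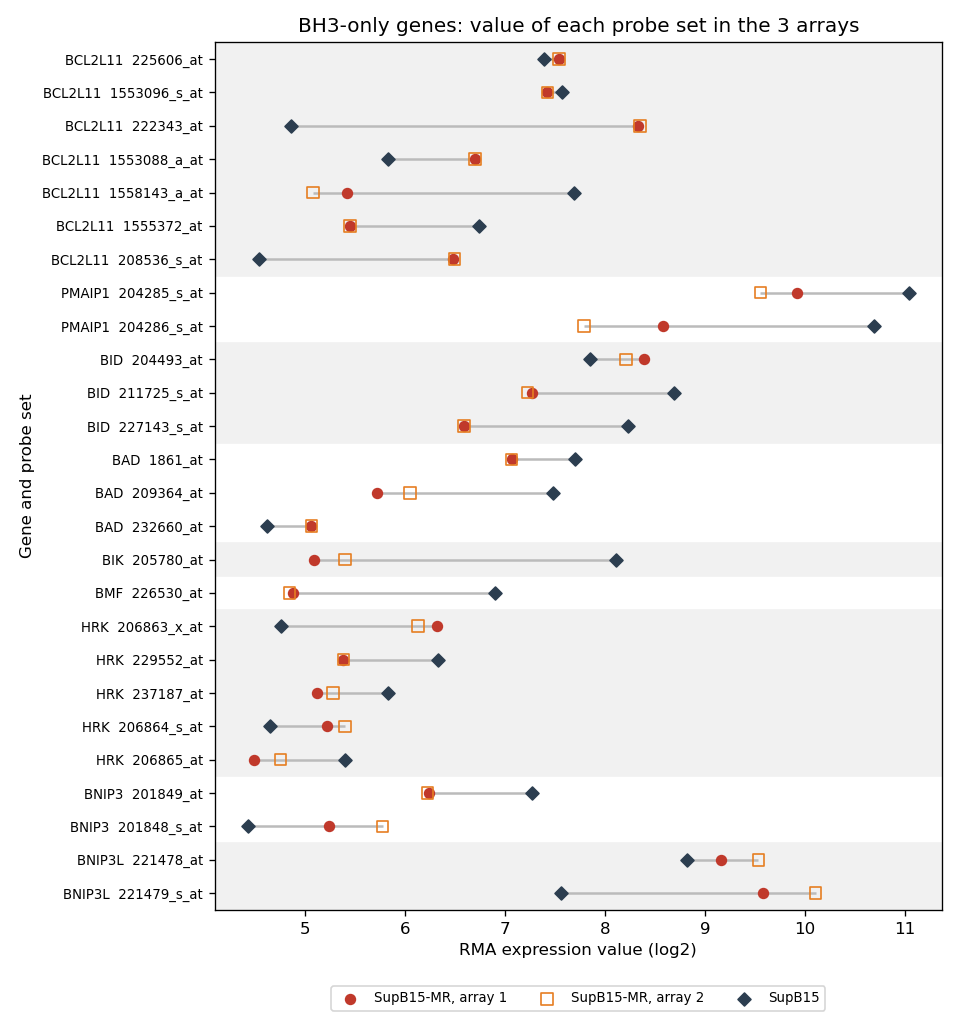
RMA expression value (log2, horizontal axis) of each of the 26 probe sets of the BH3-only genes in SupB15-MR array 1 (filled circle), SupB15-MR array 2 (open square) and SupB15 (diamond). The line joins the lowest and the highest value. PMAIP1 lies lower in SupB15-MR on both of its probe sets, and BIK and BMF on their only probe set, whereas probe sets of BCL2L11 lie on both sides.

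**Figure D2:**
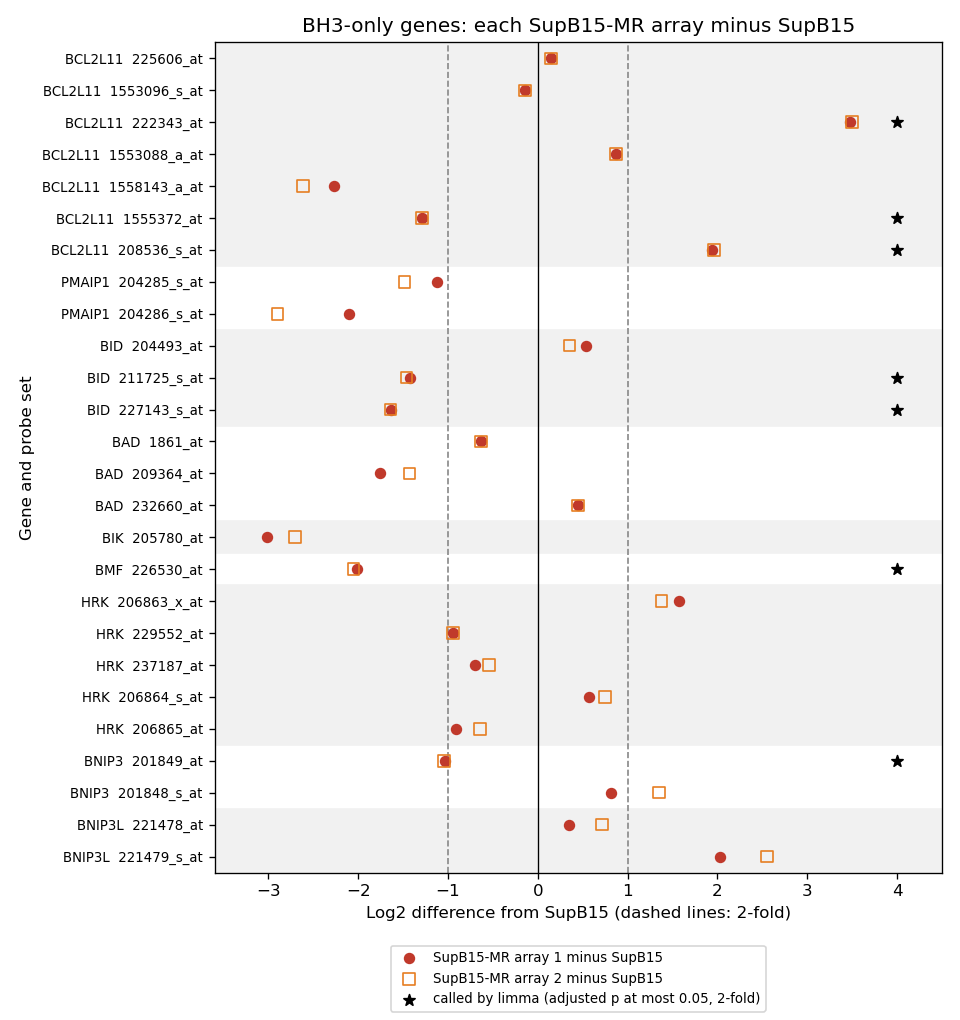
Log2 difference, SupB15-MR minus SupB15, of the same probe sets for SupB15-MR array 1 (filled circle) and array 2 (open square), with dashed lines at 2-fold. Both SupB15-MR arrays lie at least 2-fold below SupB15 on 10 probe sets and above it on 4, and the stars mark the 7 that passed the limma test.

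Among the direct activators, BCL2L11 gave no single direction. It encodes BIM, of which several splice forms (BIM-EL, BIM-L and BIM-S) are known. Which of them each of its 7 probe sets reads was not examined. On probe set 222343_at it was 8.33 and 8.35 in SupB15-MR, against 4.86 in SupB15, an 11.2-fold higher level (log2 difference 3.49, standard error 0.0130, adjusted p = 0.00182 from limma). Probe set 208536_s_at was 6.48 and 6.49 in SupB15-MR and 4.53 in SupB15, a log2 difference of 1.95 (standard error 0.0126, adjusted p = 0.00329 from limma). Both probe sets were higher in each SupB15-MR array, and these arrays differed from each other by 0.02 on each. The spread between SupB15 cultures, which these differences would also have to exceed, was not measured.

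Other BCL2L11 probe sets were lower or close to level. Probe set 1555372_at fell, with 5.45 in both SupB15-MR arrays and 6.74 in SupB15, a log2 difference of -1.29 (adjusted p = 0.000645 from limma). On this probe set the SupB15-MR values were identical, so that their spread was taken as 0 and the adjusted p depends on the spread assumed for other probe sets. Probe set 1558143_a_at was 5.42 and 5.07 in SupB15-MR and 7.69 in SupB15, a log2 difference of -2.45 that did not pass the test (adjusted p = 0.0646 from limma). The remaining 3 probe sets, each identical in both SupB15-MR arrays, differed by 0.15 (225606_at), -0.14 (1553096_s_at) and 0.87 (1553088_a_at), all under 2-fold. The differences of the gene thus ran from -2.45 to 3.49, a range of 5.93.

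BID, which caspase 8 cuts to a form that activates BAX and BAK, was lower on 2 of its 3 probe sets. Probe set 211725_s_at was 7.27 and 7.23 in SupB15-MR, against 8.69 in SupB15, a log2 difference of -1.44 (standard error 0.0317, adjusted p = 0.0131 from limma). Probe set 227143_s_at was 6.59 in both SupB15-MR arrays and 8.23 in SupB15, a log2 difference of -1.64. Since its SupB15-MR values were identical, its call depends on the spread assumed for other probe sets. The third, 204493_at, was 8.39 and 8.21 in SupB15-MR and 7.85 in SupB15, a difference of 0.45 that did not pass the test.

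PMAIP1, which encodes NOXA, the protein that mainly binds MCL1, was at a lower level on both of its probe sets in SupB15-MR, without a call. Probe set 204286_s_at was 8.58 and 7.79 in SupB15-MR, against 10.69 in SupB15, a difference of -2.50 (standard error 0.599, adjusted p = 0.147 from limma). Probe set 204285_s_at was 9.93 and 9.56 in SupB15-MR and 11.04 in SupB15, a difference of -1.30 (adjusted p = 0.131 from limma). All 4 SupB15-MR values lay at least 2-fold below the SupB15 value. Both probe sets passed the test only with a variance prior from probe sets not identical in SupB15-MR, which called 35.8% of all probe sets. The gap of 0.79 between the SupB15-MR arrays on 204286_s_at was the widest of any member probe set, whose median gap was 0.10.

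BMF, which is held on the cytoskeleton and released when cells detach, fell. Its only probe set, 226530_at, was 4.88 and 4.84 in SupB15-MR, against 6.89 in SupB15, a lower level by about 4-fold (log2 difference -2.03, standard error 0.0290, adjusted p = 0.0081 from limma). BIK, a BH3-only protein of the endoplasmic reticulum, had the largest negative difference of all members, -2.86 on its only probe set 205780_at. Its values were 5.09 and 5.40 in SupB15-MR, against 8.11 in SupB15, and it did not pass the threshold (standard error 0.234, adjusted p = 0.0501 from limma). It passed with an intensity trend in the variance prior (adjusted p = 0.0495 from limma), and over all alternatives the adjusted p lay between 1.14e-09, with the prior from probe sets not identical in SupB15-MR, and 0.162, in the unmoderated test.

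BAD, which 14-3-3 proteins hold in the cytosol once AKT has phosphorylated it, had no called probe set, although 209364_at passed after median centring and with the prior from probe sets not identical in SupB15-MR. Probe set 209364_at was 5.72 and 6.05 in SupB15-MR and 7.48 in SupB15, a difference of -1.59 (adjusted p = 0.0942 from limma). Probe set 1861_at was 7.07 in both SupB15-MR arrays and 7.70 in SupB15, and 232660_at was 5.06 in both SupB15-MR arrays and 4.62 in SupB15. Both differences, -0.63 and 0.45, were under 2-fold.

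HRK, a BH3-only gene best known from neurons, had 5 probe sets that pointed both ways, none of them called. After median centring or quantile normalisation 206863_x_at and 229552_at passed, in opposite directions. On 206863_x_at it was 6.32 and 6.13 in SupB15-MR, against 4.75 in SupB15, a difference of 1.47 (adjusted p = 0.0606 from limma). The other 4 probe sets differed by -0.94, -0.78, -0.63 and 0.66. The values of HRK lay between 4.49 and 6.33 over all probe sets and arrays.

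Of the mitophagy receptors, BNIP3 split and BNIP3L was higher on both probe sets without a call. BNIP3 probe set 201849_at was 6.24 and 6.22 in SupB15-MR, against 7.27 in SupB15, a difference of -1.04 (standard error 0.00971, adjusted p = 0.00502 from limma), just past the 2-fold threshold. Its other probe set, 201848_s_at, was 5.24 and 5.77 in SupB15-MR and 4.42 in SupB15, a difference of 1.09 (adjusted p = 0.231 from limma). BNIP3L probe set 221479_s_at was 9.58 and 10.11 in SupB15-MR, against 7.56 in SupB15, a difference of 2.29 (adjusted p = 0.105 from limma), and 221478_at was 9.16 and 9.53 in SupB15-MR, against 8.82 in SupB15, a difference of 0.53 (adjusted p = 0.333 from limma). Each BNIP3L value in SupB15-MR was above its SupB15 value. Probe sets 201848_s_at and 221479_s_at passed the test only with the prior from probe sets not identical in SupB15-MR.

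Genes with several probe sets often disagree on these arrays, and the BH3-only genes did so too. Of the 7 members with at least 2 probe sets, 5 had probe sets on both sides of 0 (71.4%), as 48.2% of all 9016 such genes did. The share was 32.8% among genes with 2 probe sets and 86.7% among genes with 7. Counting 2-fold only where both SupB15-MR arrays reached it, BCL2L11 was the only member with a probe set past 2-fold in each direction, which held for 43.8% of genes with 7 probe sets. Its range of 5.93 lay above their upper quartile of 4.75, whereas the median range was 2.09 over the 7 members and 1.38 over all genes. On both probe sets of PMAIP1, neither of them called, both SupB15-MR arrays lay 2-fold or more below SupB15. They also did so for BIK and BMF, but these have 1 probe set each, which cannot show agreement. How many of all genes meet this rule was not counted.

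**Figure D3:**
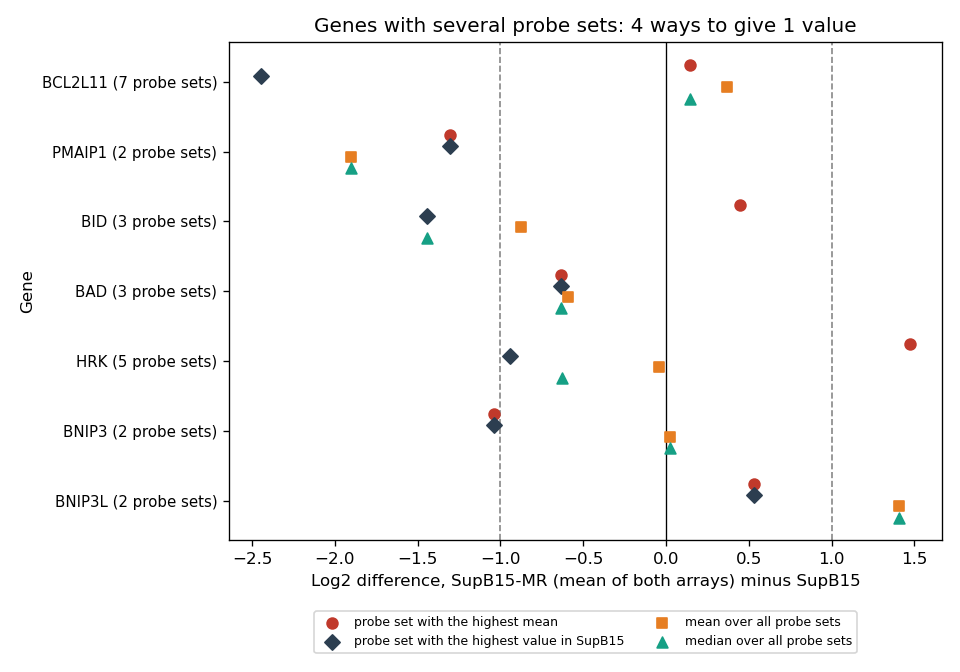
Log2 difference, SupB15-MR minus SupB15, for the 7 genes with more than 1 probe set, given as the probe set with the highest mean, the probe set with the highest value in SupB15, the mean and the median over all probe sets. BCL2L11, BID, HRK and BNIP3 take either sign depending on the choice, PMAIP1 and BAD stay below 0, and BNIP3L stays above 0.

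With 1 probe set a gene, the one with the highest mean over all arrays, 2 of the 9 genes fell (BMF and BNIP3), none rose and 7 did not pass the test. Of all 17530 genes tested in this way 9.05% fell and 11.8% rose. The median difference over the 9 genes was -0.63.

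**Figure D4:**
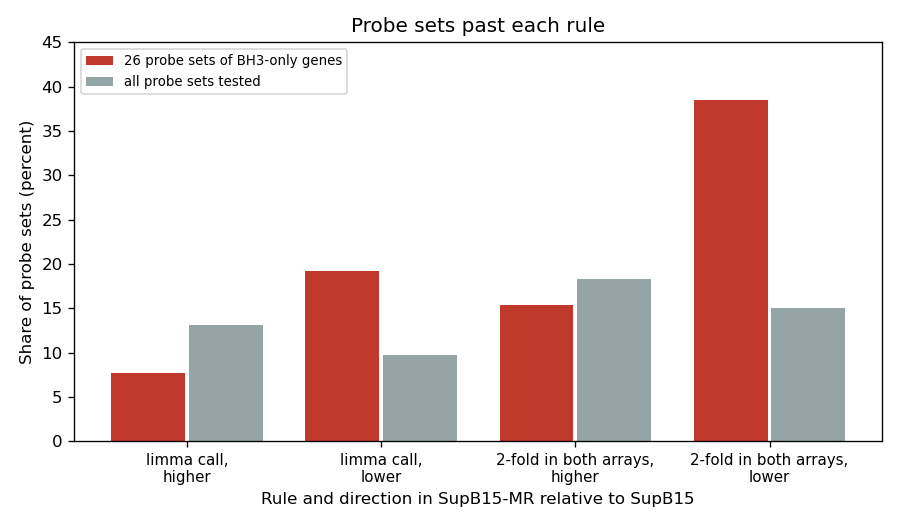
Percent of the 26 BH3-only probe sets and of all 46034 kept probe sets that were higher or lower in SupB15-MR, by the limma call and by 2-fold in both SupB15-MR arrays. Falls were the larger share among the members (19.2% called and 38.5% past 2-fold).

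Genes around the BH3-only proteins were counted in the same way. On the probe set with the highest mean, none of the 5 anti-apoptotic BCL2 genes tested was called. Their other probe sets did not all give the same picture, and the genes where they differed are named after their values were seen. Both SupB15-MR arrays were past 2-fold above SupB15 on 3 of 4 probe sets of BCL2, on 3 of 6 of MCL1 (1 was past 2-fold below) and on 2 of 4 of BCL2L1 (1 below), and the mean difference over all probe sets of the gene was 2.64, 1.78 and 0.65 in that order. Of 3 death effectors, BAX rose, with 8.62 and 8.54 in SupB15-MR and 7.28 in SupB15 (difference 1.30, adjusted p = 0.0288 from limma), and so did BAK1, at 7.07 in both SupB15-MR arrays and 5.78 in SupB15 (difference 1.29). Of 9 known inducers of BH3-only genes, ATF4, the transcription factor of the integrated stress response, fell, with 11.14 and 11.07 in SupB15-MR and 12.15 in SupB15 (difference -1.04, adjusted p = 0.028 from limma), and 8 did not pass the test. The median difference over the 9 was 0.13. By 2-fold in both SupB15-MR arrays, 3 of the 9 were lower and 0 higher, against 15.0% lower and 18.3% higher among all probe sets kept. Besides ATF4 these were HIF1A (difference -2.61, adjusted p = 0.061 from limma) and DDIT3 (difference -1.37, adjusted p = 0.176 from limma), named after their values were seen. Of 12 protein partners and processors, 2 rose and 1 fell. MAPK8, the JNK1 kinase that phosphorylates BIM and BMF, rose, with 10.07 in both SupB15-MR arrays and 7.76 in SupB15, a difference of 2.32, although 1 of its 5 probe sets went the other way by 2-fold or more. YWHAE, a 14-3-3 protein, rose, with 11.56 and 11.55 in SupB15-MR and 10.38 in SupB15, a difference of 1.18. AKT1 fell, with 6.77 in both SupB15-MR arrays and 8.53 in SupB15, a difference of -1.76. For BAK1, MAPK8 and AKT1 the SupB15-MR values were identical, so that the calls depend on the spread assumed for other probe sets. BAK1, ATF4 and AKT1 have 1 probe set each.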

How the data were processed

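Total RNA of SupB15-MR (n = 2) and SupB15 (n = 1) was labelled with biotin (NuGEN Ovation) and hybridized to Affymetrix arrays. The authors summarised the probes with RMA and deposited log2 values for 54675 probe sets. RMA summarises probes by median polish, which with few arrays can return equal values for different arrays; whether it did so here was not tested. The genome build is not given in the sources used here. Precision is limited by the number of arrays. The p-values measure the spread between the SupB15-MR arrays only. These are labelled as biological replicates, and the study describes 2 SupB15-MR clones in its expression data. How much of this spread is technical is not known.

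Probe sets were named from the platform annotation (41097 with 1 gene, 1801 with several, 11777 with none). A current symbol was found by gene identifier for 41043, whether or not it differed from the annotated one. A probe set was removed where none of its 3 values exceeded the 20th percentile of the table, 3.47 (8641 probe sets). The 46034 kept were fitted with limma 3.58.1 in R 4.3.3 (1 residual degree of freedom, empirical Bayes, Benjamini-Hochberg over all kept), and a call required both 2-fold and an adjusted p no higher than 0.05. The residual spread of probe sets identical in both SupB15-MR arrays was set to 0. The script was tested on simulated data with known changes.

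All members were named with every probe set of their own. Genes of the context lists were named where called on the probe set with the highest mean, and otherwise after their values were seen, where the text says so. In the marker lists, genes were named as examples after their values were seen. The members and lists were chosen with earlier results of these data known. Alternatives were median centring, quantile normalisation, other filters, other variance priors, an unmoderated test, leaving out each SupB15-MR array and other ways to give a gene 1 value. Protein sequences were not used here.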

Additional observations from a re-analysis of the deposited data

How the results depend on the processing

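The number of arrays limits these results: SupB15 has 1 array, and the spread comes from 2 SupB15-MR arrays. No paired analysis was possible because SupB15 has 1 array. The 7 called member probe sets (2 higher, 5 lower) were 12 after median centring (9 lower), 11 after quantile normalisation (8 lower) and 15 with a variance prior estimated on probe sets not identical in the SupB15-MR arrays (5 higher, 10 lower), and these settings called 31.1%, 28.1% and 35.8% of all probe sets. All 7 were among the calls of each of these settings. The unmoderated test, which could be run on 18 members, called 0 (0 higher, 0 lower; lowest adjusted p = 0.143), with 5 past 2-fold and an unadjusted p of 0.05; over all 27745 probe sets it could be run on, it called 0, with 6778 past the same unadjusted limits. With identical probe sets left out of the count, an alternative chosen after seeing the data, 5 of 18 members were called (27.8%), 2 higher and 3 lower. Of the 10491 probe sets called over the whole array, 2825 were identical in both SupB15-MR arrays, as were 18289 of the 46034 kept. With identical probe sets left out over the whole array as well, the share called was about the same as among the members. The cause of the changes between settings was not tested. Over all kept probe sets, 6021 were called higher and 4470 lower, and after median centring, which removes a shift of 0.19 between the array medians, 6552 and 7762. Leaving out either SupB15-MR array put 14 to 15 differences past 2-fold. The direction of all 26 could not change, since SupB15 lay outside the range of both SupB15-MR values on each. SupB15, with 1 array, could not be left out. Median centring turned BCL2L11 225606_at to -0.044. By the probe set with the highest value in SupB15, BCL2L11 was -2.45, BID -1.44 and HRK -0.94, against 0.15, 0.45 and 1.47 by the highest mean. By the mean over probe sets BID was -0.88, HRK -0.04 and BNIP3 0.023, and by the median -1.44, -0.63 and 0.023.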
